A study of Mus musculus with 3 samples.

Results

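The 10 genes described here encode proteins that fill the granules of neutrophils or mark the neutrophil and monocyte lineages: Mpo, Elane, Prtn3, Ctsg, Ms4a3, S100a8, S100a9, Ltf, Lyz2 and Fcgr3. They were chosen by name, with earlier results of these data known though by a rule that uses no measured value, out of 21755 protein-coding genes on chromosomes 1 to 19 and X, and their chromatin was read in mouse long-term haematopoietic stem cells (HSCs). Accessibility was counted for each gene in a start window, 1 kb either side of the start of its principal transcript, and in 500-bp bins over the gene body and 20 kb either side.

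The cells came from the bone marrow of 8-week-old female wild-type C57BL/6 mice, of the substrain C57BL/6J by the methods of the study, and the number of animals pooled was not given in the sources used here. c-Kit-enriched cells were sorted as Lineage- Sca-1+ c-Kit+ (LSK) CD150+ CD48- CD34- cells and profiled by DOGMA-seq, which reads open chromatin, RNA and tagged antibodies from the same cell. Of the 3 libraries only the ATAC library (assay for transposase-accessible chromatin, in which a transposase cuts open DNA and releases fragments) gave the fragments counted below. The call of which barcodes are cells was made jointly on ATAC and RNA. There was no second group or treatment to compare with. The library had no replicate, so no test could be made and all intervals are exact 95% intervals that cover counting error only.

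Granule genes are switched on in steps as neutrophils form. Myeloperoxidase and the serine proteases of the primary granules appear at the promyelocyte stage, lactoferrin and other secondary granule proteins follow in myelocytes, and PU.1, C/EBP, MYB and RUNX factors are the best known regulators of these promoters. The question addressed was whether the chromatin of such genes is already open, partly open or shut in HSCs.

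The analysed cells were the 3108 of 3757 called cells (82.7%) with more than 3000 fragments in peaks. They held 37137164 fragments, with a median of 11442 per cell and a range of 3970 to 194134. The background was the mean of 718469 bins that lie more than 50 kb from any annotated gene, 0.919 fragments per bin or 3.68 per start window. Markers of the sorted population were open, with 1551 start-window fragments at Kit, 1334 at Mecom and 1811 at Hlf, although Ly6a, which encodes the sorted surface protein Sca-1, held 50, the same number as Mpo. The other markers on the list were Tal1 with 2167, Meis1 with 1332, Procr with 230 and Slamf1 with 128, beside 324 for the median protein-coding gene. Cd48 and Cd34, whose proteins the gate excluded, held 60 and 240. By the rule for open genes given below, which 69.0% of all protein-coding genes and 42.0% of CpG-poor ones met, 5 of 6 B-cell, 1 of 4 T-cell and 3 of 5 erythroid marker genes were open, so these counts say little about other cell types. Doublets were not removed.

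Printed first are the 4 promoters that carry a PU.1 string and that of Lyz2, whose start stood out most from its surroundings. Each runs from 250 bases before to 50 bases after the start, 5′ to 3′ on the strand of the gene, from the RefSeq copy of the GRCm38 genome (mm10). Capitals mark every match, on either strand, to 7 strings that stand for PU.1, ETS, RUNX, C/EBP, MYB, GATA and E-box motifs, each spelled out after the sequences.
Mpo (chr11:87793331-87793630, plus strand): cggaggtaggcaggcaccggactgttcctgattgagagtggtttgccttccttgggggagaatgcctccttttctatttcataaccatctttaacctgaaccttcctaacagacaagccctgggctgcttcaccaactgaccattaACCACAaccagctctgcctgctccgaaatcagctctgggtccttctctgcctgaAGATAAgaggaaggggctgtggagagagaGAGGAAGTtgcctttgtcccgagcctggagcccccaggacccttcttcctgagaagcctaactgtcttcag
Elane (chr10:79885997-79886296, plus strand): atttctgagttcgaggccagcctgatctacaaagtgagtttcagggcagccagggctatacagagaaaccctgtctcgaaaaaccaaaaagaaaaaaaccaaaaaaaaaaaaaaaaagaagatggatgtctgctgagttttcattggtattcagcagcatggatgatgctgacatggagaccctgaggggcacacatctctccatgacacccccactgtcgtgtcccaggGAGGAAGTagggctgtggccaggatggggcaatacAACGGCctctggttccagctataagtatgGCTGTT
Prtn3 (chr10:79879364-79879663, plus strand): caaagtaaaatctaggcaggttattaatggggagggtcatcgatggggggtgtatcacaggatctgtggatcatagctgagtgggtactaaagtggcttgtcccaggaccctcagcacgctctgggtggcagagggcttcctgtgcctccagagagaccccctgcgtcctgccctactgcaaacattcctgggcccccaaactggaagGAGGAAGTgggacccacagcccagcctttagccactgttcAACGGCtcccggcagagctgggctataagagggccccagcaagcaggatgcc
S100a8 (chr3:90668728-90669027, plus strand): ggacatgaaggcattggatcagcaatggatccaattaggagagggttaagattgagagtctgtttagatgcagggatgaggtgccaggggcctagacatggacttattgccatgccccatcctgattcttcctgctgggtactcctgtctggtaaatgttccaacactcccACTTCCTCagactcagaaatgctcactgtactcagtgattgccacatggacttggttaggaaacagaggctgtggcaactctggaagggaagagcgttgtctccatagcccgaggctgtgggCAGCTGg
Lyz2 (chr10:117282272-117282571, minus strand): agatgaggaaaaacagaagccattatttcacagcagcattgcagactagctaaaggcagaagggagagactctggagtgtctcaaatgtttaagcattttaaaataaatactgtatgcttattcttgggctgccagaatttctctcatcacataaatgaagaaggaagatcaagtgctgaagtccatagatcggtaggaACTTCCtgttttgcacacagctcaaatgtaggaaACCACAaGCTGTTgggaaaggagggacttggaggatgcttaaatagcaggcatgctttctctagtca

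The PU.1 string, GAGGAAGT, stood in 4 of the 10 promoters, at Mpo, Elane, Prtn3 and S100a8, and in 3.19% of all protein-coding promoters of the same length. It began 21 bases upstream of the start in Mpo, 20 bases upstream in Elane and 42 bases upstream in Prtn3, each time on the strand of the gene. In S100a8 it lay on the opposite strand, 79 bases upstream. The shorter ETS string, GGAAGT, lies inside the PU.1 string and was found in 8 of the 10 promoters, all but Ltf and Fcgr3, against 24.9% of all promoters. RUNX strings (TGTGGT) occurred in 5 of the 10 and in 15.0% of all promoters. The C/EBP string, TTGCNNAA, was present in 4, at Ms4a3, S100a9, Ltf and Fcgr3, and in 10.2% of all promoters. MYB strings (AACNGC) were found in 5 against 34.8%. Strings of the GATA factors, spelled AGATAA, stood in 3 against 9.73%. The E-box CAGCTG was found in S100a8 alone, against 15.4% of all promoters. Among the 11230 promoters whose start windows were poor in CpG, the class to which all 10 belong, the PU.1 string was found in 4.07%, ETS in 24.4%, RUNX in 19.8%, C/EBP in 13.1%, MYB in 33.5%, GATA in 14.3% and the E-box in 17.4%. A match describes letters and not a bound factor.

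For the loci of Elane and Prtn3, Ltf, Ms4a3 and S100a9, the strongest non-promoter bin that overlaps no exon is shown next, 1 for each locus and each with at least 250 fragments, as the 200 bases around the point of most fragment ends, on the plus strand of GRCm38, with capitals for the same 7 strings.
Elane and Prtn3, shared bin (chr10:79877927-79878126, plus strand): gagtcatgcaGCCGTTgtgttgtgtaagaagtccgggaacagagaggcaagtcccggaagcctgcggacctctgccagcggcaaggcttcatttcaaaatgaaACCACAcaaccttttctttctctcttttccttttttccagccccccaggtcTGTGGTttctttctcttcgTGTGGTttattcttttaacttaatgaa
Ltf bin (chr9:111046345-111046544, plus strand): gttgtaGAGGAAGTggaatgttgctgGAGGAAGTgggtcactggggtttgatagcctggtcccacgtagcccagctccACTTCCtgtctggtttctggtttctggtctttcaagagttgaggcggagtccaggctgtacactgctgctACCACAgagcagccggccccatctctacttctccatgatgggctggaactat
Ms4a3 bin (chr19:11613195-11613394, plus strand): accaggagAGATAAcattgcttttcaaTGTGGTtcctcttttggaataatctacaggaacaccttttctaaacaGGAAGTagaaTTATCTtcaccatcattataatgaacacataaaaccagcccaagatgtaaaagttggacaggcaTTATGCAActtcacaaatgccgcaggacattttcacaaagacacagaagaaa
S100a9 bin (chr3:90710130-90710329, plus strand): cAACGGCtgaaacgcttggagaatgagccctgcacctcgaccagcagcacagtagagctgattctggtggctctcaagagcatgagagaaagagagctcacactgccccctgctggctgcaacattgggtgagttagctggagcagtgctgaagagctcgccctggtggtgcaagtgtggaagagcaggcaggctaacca

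The bin near Ltf held 2 PU.1 strings and a further ETS string within 200 bases, together with a RUNX string. The bin shared by Elane and Prtn3 held 3 RUNX strings, and the MYB string printed with it lies just before the first base of the bin. The bin near Ms4a3 held ETS, RUNX and C/EBP strings and 2 GATA strings. In the bin near S100a9 the only match was a MYB string. Shares over many bins are for whole 500-bp bins and not for these 200 bases. Of the strongest bins of the 10 genes, 2 held a PU.1 string (Ltf and Lyz2), against 4.98% of all 271298 bins at 10 times the background or more. ETS strings were in 5 (31.7% of those bins), RUNX strings in 6 (37.4%) and C/EBP strings in 2 (16.9%). MYB strings were in 5 (49.9%), GATA strings in 3 (21.0%) and E-boxes in 2 (27.0%). The strongest bin of Ctsg, counted here for RUNX, MYB and GATA, was at 7.62 times the background and so outside the class it is set against.

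All 10 start windows held fewer fragments than the median protein-coding gene. The median gene had 324 fragments in its start window, the highest of the 10 had 125 and the lowest had 2. Their median stood at the 32.4th percentile of all genes. A start window at 10 times the background or more was called open, which took 36.8 fragments. A gene under that with at least 1 bin at 10 times the background elsewhere in its window, away from the starts of other genes, was called primed, and a gene with neither was called closed.

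By these rules 6 of the 10 genes were open (Mpo, Elane, Prtn3, Ltf, Lyz2 and Fcgr3), 3 were primed (Ms4a3, S100a8 and S100a9) and Ctsg was closed. The same rules called 69.0% of all protein-coding genes open, 16.2% primed and 14.8% closed, so the count of 6 does not set the genes apart. An open call here is relative to DNA far from genes, and the rate at these starts in barcodes outside cells is given at the end. All 10 had CpG-poor start windows, with an observed over expected CpG of 0.0930 to 0.258 against a median of 0.486 over all genes. Of the 11230 genes under an observed over expected CpG of 0.5, 42.0% were open, 30.2% primed and 27.8% closed. Within that class the 10 genes ran from the 20.8th percentile (Ctsg) to the 70.9th (Prtn3), and the 6 open ones lay at or above the 59.4th. At 100 times the background, a threshold chosen after the values were seen, none of the 10 start windows was open, against 47.9% of all genes and 15.4% of CpG-poor genes. The highest of the 10 was at 34.0 times, so nothing is read from that count.

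**Figure D1:**
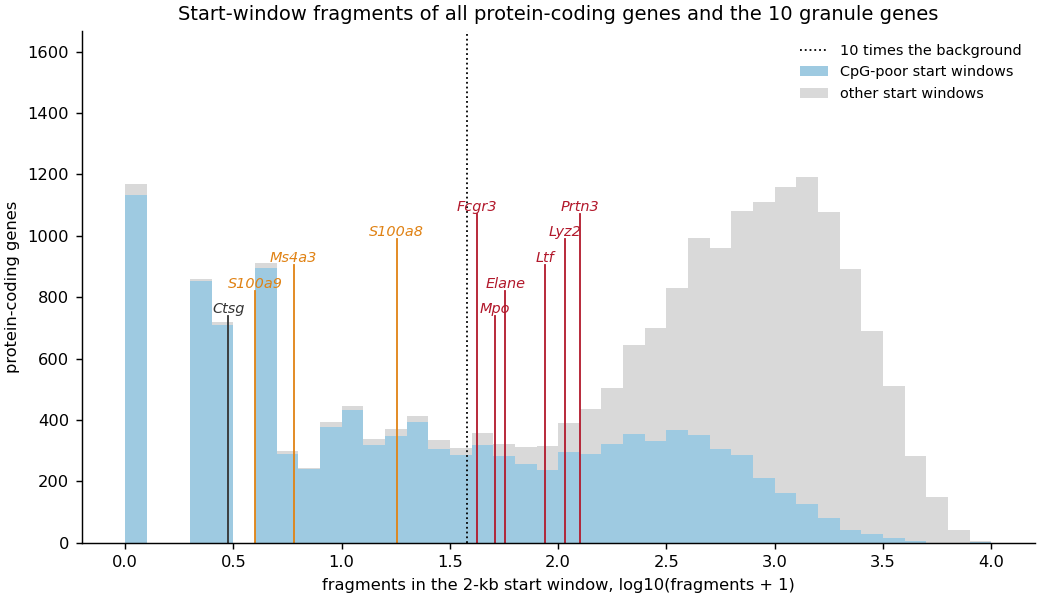
Histogram of the fragments in the 2-kb start window of 21755 protein-coding genes, as log10 of fragments plus 1, with CpG-poor windows in blue and the others in grey. Vertical lines mark the 10 granule genes by class (red open, orange primed, black closed), from 2 fragments at Ctsg to 125 at Prtn3, and the dotted line marks 10 times the background.

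The primary granule genes came first in the order of differentiation, and they differed among themselves. Mpo (chr11:87793581-87804413, plus strand) encodes myeloperoxidase, the enzyme that makes hypochlorous acid. Its start window held 50 fragments (37.1 to 65.9) in 45 cells, 13.6 times the background and at the 33.0th percentile of all genes. The window was only slightly denser than the rest of the Mpo locus, at 25.0 against 18.9 fragments per kb, a ratio of 1.33 whose interval of 0.976 to 1.76 includes 1. Outside promoters, 24 of its 97 bins (24.7%) reached 10 times the background, compared with 9.92% of the bins of all genes. The strongest, with 94 fragments (76.0 to 115) in 2.90% of cells, lay 14.8 kb upstream in an exon of the neighbouring gene Tspoap1, near annotated starts of shorter Tspoap1 transcripts.

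Elane (chr10:79886247-79888215, plus strand), which encodes neutrophil elastase, and Prtn3 (chr10:79874476-79883174, plus strand), which encodes proteinase 3, lie side by side with starts 6.63 kb apart. The Elane start window held 56 fragments (42.3 to 72.7) in 53 cells and that of Prtn3 held 125 (104 to 149) in 110 cells, the highest of the 10. These values were 15.2 and 34.0 times the background. The locus around them was open over most of its length: 73.0% of the Elane bins and 82.9% of the Prtn3 bins were at 10 times the background or more. Against this surrounding level the starts were lower, at 28.0 against 87.6 fragments per kb for Elane (ratio 0.320, 0.241 to 0.416) and 62.5 against 107 for Prtn3 (ratio 0.583, 0.484 to 0.696).

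The highest bin that both windows share was the one printed above, upstream of both starts at chr10:79878001-79878500, inside the Prtn3 gene record but outside its principal transcript. It held 322 fragments (288 to 359) in 8.88% of cells, 350 times the background, and lay 1.36 kb upstream of the Prtn3 start and 8.00 kb upstream of the Elane start. The bin beside it held 296 fragments. Further away, a bin of 212 fragments lay between the genes, 2.50 kb upstream of Elane. A bin of 172 stood in an exon of Cfd, the complement factor D gene, 6.50 kb downstream of the Elane start. Prtn3 reached the same 322 fragments in a bin 21.9 kb upstream, within the body of Ptbp1, which encodes an RNA-binding splicing regulator. The Ptbp1 start was one of the strongest of all genes with 5279 fragments, and that of Med16, 22.7 kb downstream of Elane, held 3746. Starts of other annotated Prtn3 transcripts held more fragments than the principal start, with 332 at Prtn3-206 and 329 at Prtn3-202, which lies beside the start of Plppr3 (324 fragments).

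Ctsg (chr14:56099881-56102574, minus strand), which encodes cathepsin G, was the closed gene of the group. Its start window held 2 fragments (0.242 to 7.22) in 2 of 3108 cells, 0.544 times the background. None of its 72 bins reached 10 times the background, and the strongest held 7 fragments (2.81 to 14.4). The surroundings were as empty as the start, at 0.889 fragments per kb, and the neighbouring protease genes Mcpt8 and Gzme held 2 and 1 fragments at their starts. Primary granule genes therefore spanned the range of the group, from Ctsg at the 11.0th percentile to Prtn3 at the 39.1st. For Ctsg a level above background was not detectable at this depth.

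Ms4a3 (chr19:11629496-11640851, minus strand), a membrane protein gene used as a mark of granulocyte and monocyte progenitors, was near background at its start. The start window held 5 fragments (1.62 to 11.7) in 5 cells, 1.36 times the background. It was classed as primed through 11 of its 91 bins. The strongest lay 27.6 and 29.1 kb downstream of its start, beyond its 3′ end, and weaker ones of 21 and 10 fragments lay 5083 and 5583 bp downstream, inside the gene. The distant pair held 250 (220 to 283) and 205 (178 to 235) fragments in 7.21% and 6.02% of cells, 272 and 223 times the background. The Ms4a3 start is not the closest one to them: that of Ms4a6d lay 8.40 and 6.90 kb away.

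Ltf (chr9:111019271-111042767, plus strand) encodes lactoferrin, the iron-binding protein of secondary granules. Its start window held 86 fragments (68.8 to 106) in 79 cells, 23.4 times the background, and was denser than its surroundings by 1.97 times (1.56 to 2.45). The start showed the highest share of short fragments among the 10 genes, with 40.7% shorter than the DNA wrapped around a nucleosome. The locus also held the strongest element of the group that was free of tRNA genes, an intergenic bin at chr9:111046001-111046500, 27.0 kb downstream of the start and 3.48 kb beyond the gene. This bin held 449 fragments (408 to 493) in 12.3% of cells, 489 times the background, and 72.2% of them were short. The next protein-coding start, that of Ccrl2, a chemokine receptor-like gene, lay 11.0 kb from the bin and held 504 fragments.

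S100a8 (chr3:90668978-90670035, plus strand) and S100a9 (chr3:90692632-90695721, minus strand) encode the calcium-binding subunits of calprotectin, which neutrophils carry in abundance in the cytosol. The S100a8 start window held 17 fragments (9.90 to 27.2) in 16 cells, 4.63 times the background, and that of S100a9 held 3 (0.619 to 8.77) in 3 cells, 0.816 times. The intervals of the pair did not overlap, and both starts were under the threshold for open. S100a8 was primed by few and weak bins, 4 of 74 (5.41%), the strongest of which held 25 fragments (16.2 to 36.9) inside S100a7a. S100a9 had a strong bin 14.5 kb upstream of its start, with 331 fragments (296 to 369) in 9.56% of cells, 72.5% of them short. A bin of 79 fragments lay 13.0 kb upstream, in the processed pseudogene Gm42579. The annotated start of Gm42579 lay within 1 kb of both bins.

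Lyz2 (chr10:117277331-117282321, minus strand) encodes lysozyme M, shared by neutrophils and macrophages and widely used to mark them. Its start window held 107 fragments (87.7 to 129) in 97 cells, 29.1 times the background. Of the 10 genes it had the clearest start of its own: 53.5 fragments per kb against 12.4 in the rest of the window, a ratio of 4.32 (3.47 to 5.33). The median gene had a ratio of 9.35, and Lyz2 lay at the 39.5th percentile of that ratio. The start of its paralog Lyz1, 10.5 kb away, held 7 fragments. The strongest bin, with 85 fragments (67.9 to 105), lay 19.4 kb upstream, closer to the Lyz1 start than to that of Lyz2. Lyz1 and Lyz2, like Fcgr3 and the other Fc receptor genes, are alike in sequence, so reads may fit more than 1 copy. The effect of such reads on these counts was not tested.

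Fcgr3 (chr1:171051174-171064935, minus strand) encodes a low-affinity receptor for IgG. Its start window held 41 fragments (29.4 to 55.6) in 35 cells, 11.2 times the background, with an interval of 8.00 to 15.1 that includes the threshold of 10. The window around it held 106 fragments per kb, most of them at tRNA genes, and its strongest bin was the highest of the group with 1213 fragments (1146 to 1283) in 30.4% of cells. These fragments lay 6.42 kb beyond the gene record. The 3 strongest bins, with 1213, 1042 and 362 fragments 14.7, 21.2 and 25.7 kb downstream of the start, each overlapped a tRNA gene, and RefSeq places 20 tRNA genes in the window of Fcgr3 and none in those of the other 9 genes. With bins that overlap a tRNA gene and the bins beside them left out, a setting added after the values were seen, the strongest bin held 68 fragments, 74.0 times the background. That setting removed 90.6% of the fragments around the start and left 15.8 per kb, against 20.5 at the start, a ratio of 1.30 (0.919 to 1.78).

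The tRNA genes downstream of Fcgr3 ranged from 432 fragments at tRNA-Asp (chr1:171037029-171037100) to 793 at tRNA-Gly (chr1:171044985-171045055) within 250 bp, and the median of 403 tRNA genes in the genome was 134. The 15 upstream copies ranged from 0 to 163. Because tRNA genes exist in near-identical copies, reads may not have been placed on 1 copy with certainty. The start of the longer transcript Fcgr3-202 held 255 fragments, more than the principal start, and 163 fragments lay within 250 bp of the tRNA-Gly gene at chr1:171064699-171064770 beside it. The part of the tRNA gene in the count at that start was not tested.

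**Figure D2:**
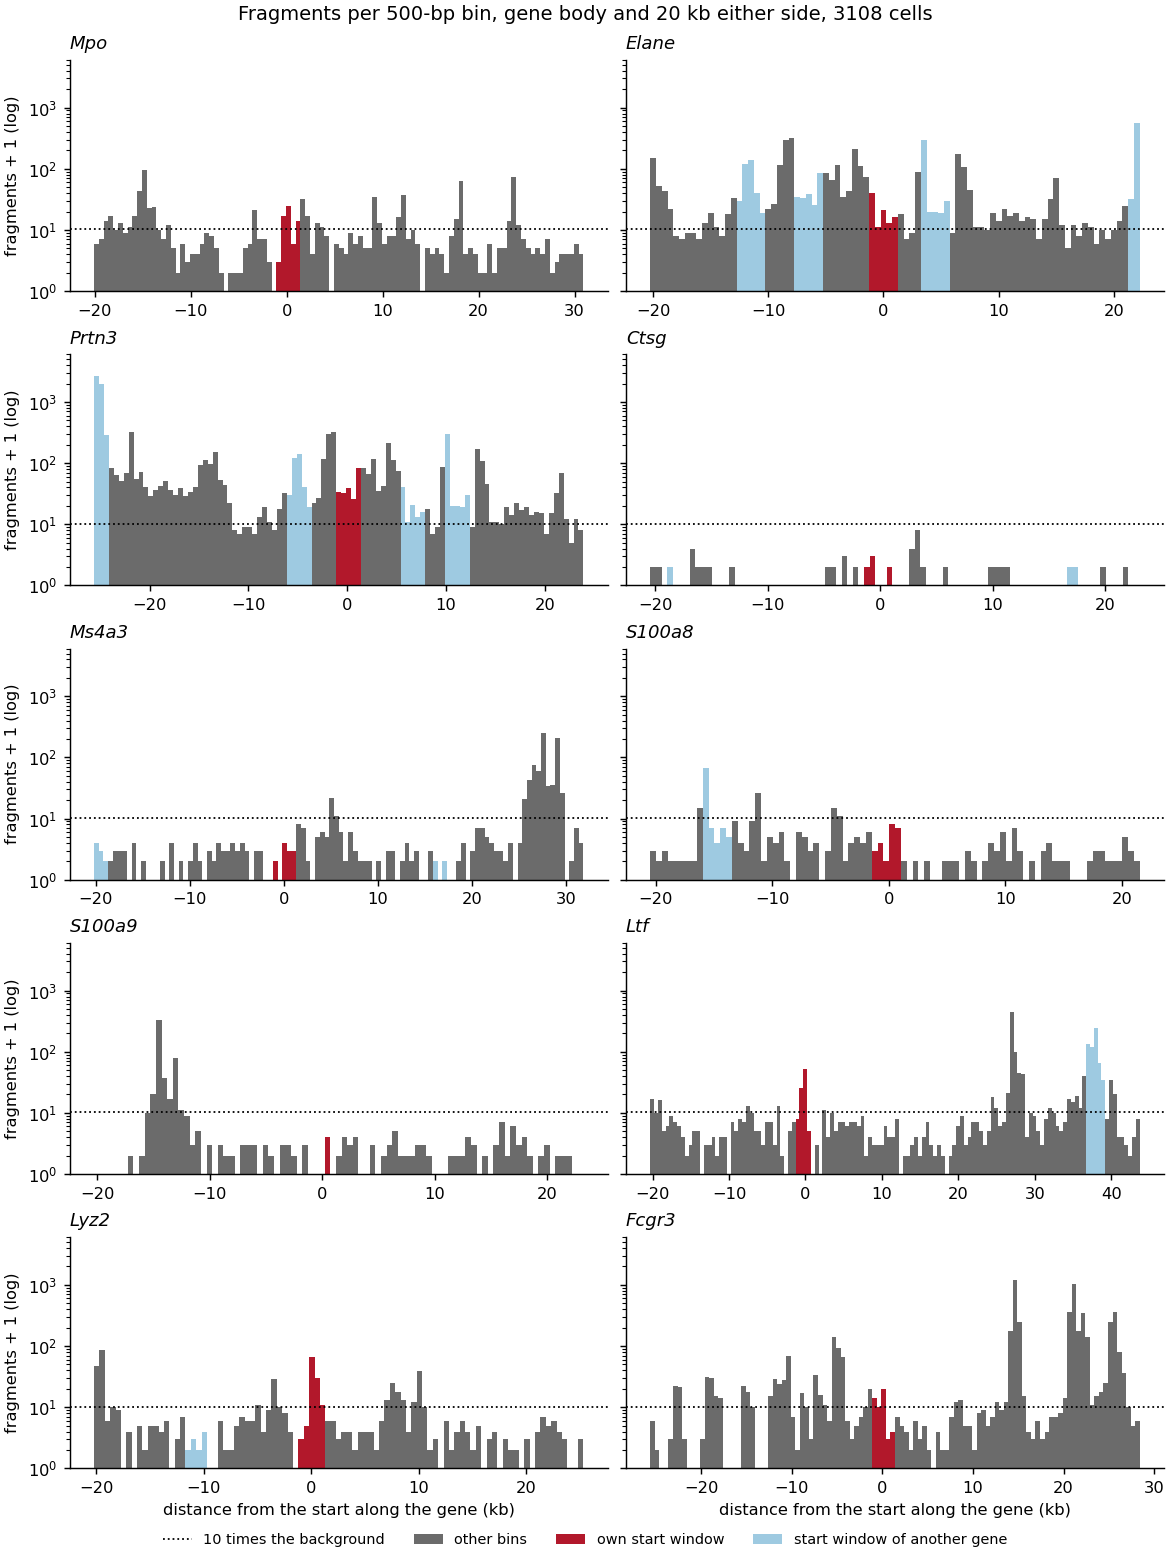
Fragments per 500-bp bin (fragments plus 1, log axis) against the distance from the start along each gene in kb, in 3108 cells, with the start window of the gene in red, start windows of other genes in blue and other bins in grey. The Lyz2 and Ltf starts peak at 66 and 52 fragments, under distant bins of 85 and 449, the Elane and Prtn3 starts sit in a locus with 73.0% and 82.9% of bins above the dotted line (10 times the background), and no bin of Ctsg reaches that line.

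Compared with its own surroundings, the start was the denser part in 5 of the 10 genes (Lyz2, Ltf, S100a8, Mpo and Ctsg), against 77.5% of all genes and 56.8% of CpG-poor genes. For Lyz2 and Ltf the interval of the ratio lay above 1. For S100a8 (1.63, 0.930 to 2.68), Mpo and Ctsg (1.12, 0.131 to 4.41) it included 1. In Prtn3, Elane, Ms4a3 and S100a9 the start was the thinner part, with ratios from 0.103 (S100a9, 0.0211 to 0.301) to 0.583 (Prtn3). For Fcgr3 the direction turned with the tRNA bins, from 0.193 (0.139 to 0.263) with them to 1.30 without, where the start was the denser part in 6 of the 10 genes, against 77.5% of all genes and 56.9% of CpG-poor genes. When the median bin of the own window, taken as at least 1 fragment, replaced the background far from genes, none of the 10 genes was open. The shares open were 59.2% of all genes and 26.5% of CpG-poor genes. Of the 10 genes 9 were primed, against 24.9% and 43.7%. In the 10 starts a median of 28.0% of fragments were shorter than nucleosomal DNA, against 44.1% for all genes and a close 29.2% for CpG-poor genes.

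**Figure D3:**
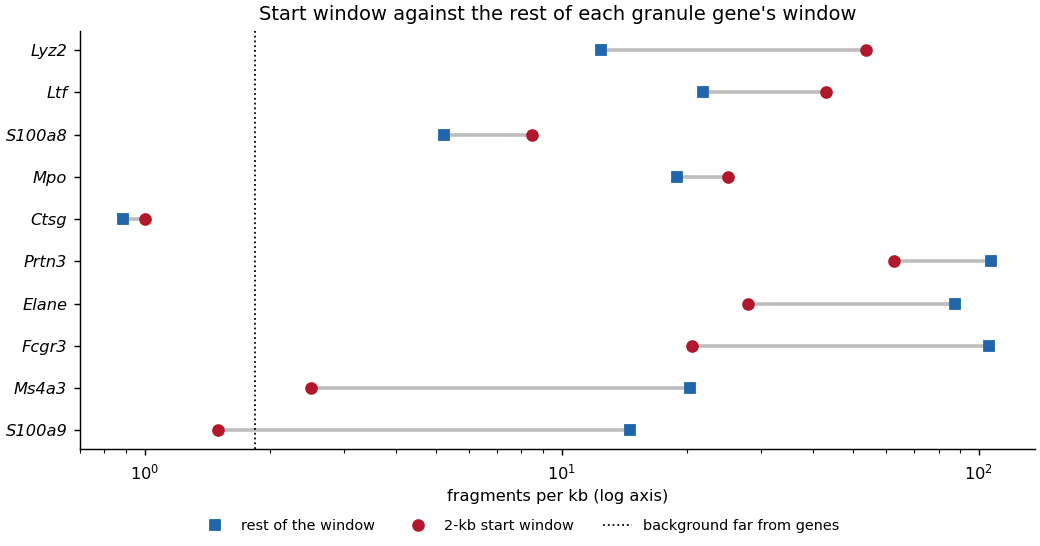
Fragments per kb (log axis) in the 2-kb start window (red circles) and in the rest of each window away from starts of other genes (blue squares), with genes ordered by the ratio. The start is the denser part from Ctsg upward to Lyz2 (12.4 to 53.5) and the thinner part from Prtn3 downward to S100a9 (14.6 to 1.50), with tRNA bins kept, which for Fcgr3 set the direction (15.8 per kb around the start without them), and the dotted line marks the background far from genes.

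In 9 of the 10 genes the strongest bin was at 10 times the background or more, as in 83.7% of all genes and 70.7% of CpG-poor genes. In 7 it was at 100 times or more (Mpo, Elane, Prtn3, Ms4a3, S100a9, Ltf and Fcgr3), against 57.6% of all genes and 46.6% of CpG-poor genes. The count was 6 without tRNA bins, where Fcgr3 fell to 74.0 times, and 4 with a flank of 10 kb, where Mpo, Ms4a3 and S100a9 fell under 100 times. These counts were not tested and do not set the 10 genes apart. The shares of genes given beside them are by strongest bin as well. The 10 genes had 63 to 118 bins each, and 0.991% of single bins reached 100 times. Ranked against the strongest bin of every gene, the 10 had a median at the 73.8th percentile, from Ctsg at the 14.5th and S100a8 at the 23.2nd to Ltf at the 84.9th and, through its tRNA bin, Fcgr3 at the 97.2nd. The bins of Ms4a3, Ltf and S100a9 lay 27.6, 27.0 and 14.5 kb from the starts, and which gene any of them acts on cannot be told from these data.

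Other genes of the same programme were read in the same way. Of 20 other granule genes, 9 were open, 9 primed and 2 closed, with a median percentile of 27.7. Of these 19 were CpG-poor, a class with 42.0% open and 30.2% primed. The highest were Ctsc (796 fragments), which encodes the protease that activates the granule serine proteases, Mmp9 (637) and Bpi (383), and the lowest were Chil3, Cybb and Ly6g with 2 each. The myeloid receptor list had a median percentile of 33.7. Fcgr1 was highest with 263 fragments, followed by Csf3r, the receptor for the granulocyte growth factor G-CSF, with 156 and Fcer1g with 136, and Fcgr4, Fpr2 and Fpr1 were lowest with 20, 10 and 3. The B-lineage list, which belongs to a different fate, had a median percentile of 34.0 and the same counts by class as the 10 granule genes, 6 open, 3 primed and 1 closed. Its highest genes were Ebf1 (285), Cd79b (222) and Pax5 (105), and its lowest were Vpreb1 (22), Igll1 (18) and Ms4a1 (10).

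Higher median percentiles were found for platelet genes, myeloid factors and HSC markers. The platelet list had a median percentile of 50.6 although all 10 of its genes were CpG-poor, with 1154 fragments at Itga2b, 953 at Pf4 and 859 at Gp1ba, and with 73 at Selp, 36 at Ppbp and 5 at Gp6. The 9 myeloid factor genes were all open, with a median percentile of 66.7, but only 3 of them and 3 of the 8 HSC markers were CpG-poor. Of genes that are not CpG-poor, 97.9% were open, with a median percentile of 74.0, so these lists differ from the 10 granule genes in promoter class. Cebpb held 1897 fragments, Runx1 1524, Cebpa 1486, Myb 965, Irf8 770, Cebpd 720, Spi1, which encodes PU.1, 630 and Gfi1 502, each above every one of the 10 granule genes. Cebpe, the factor of late granule genes, had the lowest count of these factors with 170. Among HSC markers the median percentile was 79.2, from Ly6a with 50 fragments to Tal1 with 2167. No list was compared by a test, since there was 1 library.

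**Figure D4:**
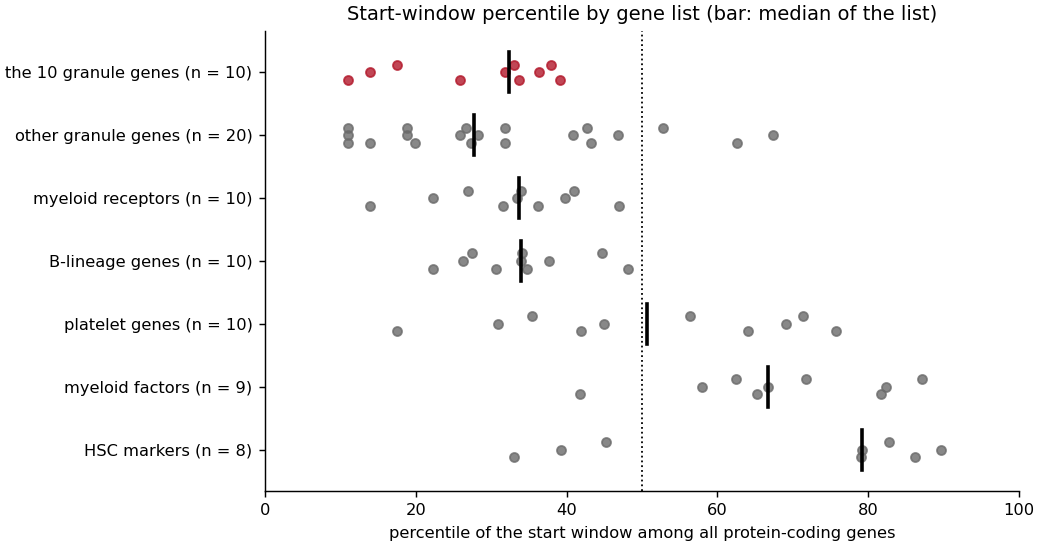
Percentile of each gene's start window among all protein-coding genes, by gene list, with a black bar at the median of the list. The 10 granule genes (red) lie between 11.0 and 39.1 with a median of 32.4, beside medians of 27.7 for other granule genes, 34.0 for B-lineage genes, 50.6 for platelet genes, 66.7 for myeloid factors and 79.2 for HSC markers.

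The 492 start-window fragments of the 10 genes were spread thinly over cells. No fragment was seen in 2698 of the 3108 cells, 376 cells had fragments at 1 of the genes, 33 at 2 and 1 at 3. The cell with 3 genes was the one with the most fragments of all, 194134, and doublets were not removed. The pairs met most often were Prtn3 with Lyz2 in 8 cells and Prtn3 with Elane in 5 cells. Prtn3 and Lyz2 were also the genes seen in the most cells, 110 and 97. Whether the pairs exceed what such counts give was not tested. No cell held fragments at 4 or more of the genes. Among the 20 other granule genes the most seen in 1 cell was 7.

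Deeper cells showed the genes more often but not at a clearly higher rate. With cells split by depth into 4 classes of like size, the share with any fragment was 7.59% in the shallowest class and 20.1% in the deepest. Per 1000000 fragments the 4 classes gave, from shallow to deep, 11.6 (8.90 to 14.8), 14.0 (11.6 to 16.9), 12.3 (10.2 to 14.8) and 14.1 (12.2 to 16.2), with intervals that overlap. The 32 cells with the most fragments at these genes (1% of cells) held 15.0% of them.

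The same windows were counted in barcodes that were not called as cells, as fragments per 1000000 fragments (FPM). There the 10 genes gave 50 fragments, or 14.2 FPM (10.5 to 18.7), against 13.2 FPM (12.1 to 14.5) in the analysed cells. For start windows of all protein-coding genes the rates were 256475 FPM outside cells and 451102 FPM in cells. HSC markers were at 232 FPM in cells and 123 (112 to 136) outside, platelet genes at 124 and 77.7 (68.8 to 87.5) and other granule genes at 75.5 and 56.7 (49.1 to 65.2). The granule genes, with 13.2 and 14.2, and the B-lineage list, with 23.7 (22.1 to 25.3) and 20.4 (16.0 to 25.7), were the lists, of the 5 counted, whose intervals overlapped. For each of the 10 genes the interval in cells overlapped the interval outside. Prtn3 gave 3.37 FPM in cells and 3.40 outside, Ltf 2.32 and 2.84 and Mpo 1.35 and 1.70. Lyz2 gave 2.88 (2.36 to 3.48) in cells and 1.70 (0.625 to 3.70) outside. Barcodes outside cells can hold free DNA or poor cells, which cannot be told apart here, and the part of either in the start-window counts was not tested.

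**Figure D5:**
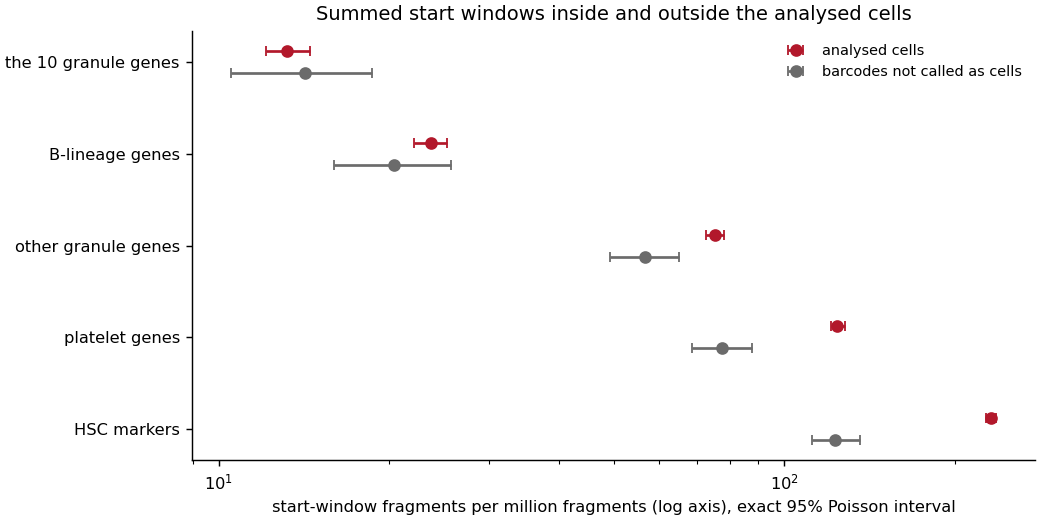
Summed start-window fragments per 1000000 fragments (FPM, log axis) in the 3108 analysed cells (red) and in barcodes not called as cells (grey), with exact 95% Poisson intervals. The 10 granule genes are at 13.2 and 14.2 FPM, while HSC markers are at 232 and 123.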

How the data were processed

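Fragments of the ATAC library of sorted HSCs were analysed. The authors ran Cell Ranger ARC 2.0.2 on mm10, which collapsed duplicate read pairs, called cells jointly on ATAC and RNA, and gave the deposited fragment list with read-pair counts per fragment and the deposited per-barcode counts of fragments and of fragments in peaks. Per the file headers, the cell call is 1 or 0 per barcode. RNA was not analysed here, and the antibody tag matrix was not used because it pairs no names with its rows.

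Fragments were counted once, at their midpoint, with scipy 1.17.1, pandas 2.3.3 and numpy 2.4.6 under Python 3.11.15; plots used matplotlib 3.10.9. Starts came from the principal transcripts of GENCODE release M21, tRNA genes and sequence from RefSeq GRCm38.p6, and no fragment lay beyond a chromosome end of that genome. Of the fragments in the file, 0.144% fell outside chromosomes 1 to 19 and X. Intervals are exact Poisson for fragments and ratios of densities (through the exact Clopper-Pearson interval), and Clopper-Pearson for shares of cells. Counting was tested on simulated fragments. The 10 genes, the lists and the strings were chosen with earlier results of these data known. Genes that could be named were the 10, all myeloid factors, myeloid receptors and HSC markers, the 3 highest and 3 lowest of the other lists, and genes with a start in a window of the 10. Genes near the strongest bins were named, and shares of genes by strongest bin added, after the values were seen. Alternatives covered thresholds, start choice, counting, background, cells, fragments, thinning to 3000 fragments a cell, flanks and other starts.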

Additional observations from a re-analysis of the deposited data

Results flagged for a closer look

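Fragments over the 10 granule gene starts also appeared in barcodes outside the analysed cells. In the 649 called cells under the filter of 3000 fragments in peaks the 10 start windows gave 15 fragments, 11.7 FPM (fragments per 1000000) (6.57 to 19.4), above a floor of 3 fragments, here 2.35 FPM. In barcodes not called as cells they gave 50 fragments, 14.2 FPM (10.5 to 18.7), above the same floor of 3 fragments, here 0.851 FPM. Prtn3 led outside the called cells with 12 fragments and Ltf followed with 10, while Ctsg and S100a9 had none.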

How the results depend on the processing

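No paired analysis was possible because there was 1 ATAC library and no test. The 6 open genes were the same ones under 11 of 16 alternatives, and the median percentile stayed between 22.3 and 34.2 under the 11 that give one. Of 10 open, primed and closed genes, the counts were 6, 3 and 1. They became 3, 6 and 1 at 20 times the background, 0, 7 and 3 at 100 times (added after the values were seen), and 0, 9 and 1 against the median bin of the own window. Counting every overlapping fragment gave 4 open and 5 primed, without Mpo and Fcgr3. Closed genes fell to 0 at 5 times the background and with sub-nucleosomal fragments alone, where Ctsg became primed, and rose to 2 with a 10 kb flank, which left out the bin of S100a9. Thinning to 3000 fragments a cell made Elane primed. The median start-window percentile, 32.4, was 34.2 at the 5′ end of the gene record, where Prtn3 takes the start beside Plppr3 and reached the 51.0th percentile, and 22.3 against the own window. The median fold of the strongest bin, 311, became 243 with overlap counting, 23.6 against the own window, 538 with sub-nucleosomal fragments, 353 after thinning, 55.0 with a 10 kb flank and 187 without tRNA bins (added after the values were seen). Without tRNA bins the ratio of start to surroundings at Fcgr3 turned from 0.193 to 1.30, because 90.6% of the surrounding fragments were left out. The cause of other shifts was not tested. Depth limits Ctsg, S100a9 and Ms4a3, whose starts held 2, 3 and 5 fragments.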
